A study of Mus musculus with 6 samples.

Results

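The globin and red cell membrane genes described here are 32 mouse genes chosen by name: adult globins and their chaperone, membrane and skeleton proteins, erythroid transcription factors, and transport, maturation and metabolic genes of the red cell. Of these, 31 were found by symbol among the 51361 genes of the count table, and 30 were among the 16657 genes with enough counts to test. The globin chaperone Ahsp was not analysed here, and the ubiquitin ligase gene Trim58 was too low to test. RNA was sequenced from regulatory T cells (Tregs), the CD4+CD25+Foxp3+ T cells that restrain immune responses, sorted by flow cytometry into lysis buffer. There were 3 groups of 2 libraries: Tregs from the brain after stroke surgery (tMCAO brain), from the blood after the same surgery (tMCAO blood), and from the blood of sham-operated mice (sham blood). tMCAO is transient middle cerebral artery occlusion, a stroke model that stops and then restores flow through a brain artery. Here the artery was blocked for 60 min and cells of the tMCAO groups were taken on day 14. No day was recorded here for the sham-operated mice. All mice, sham-operated ones included, were male, 9 weeks old and of C57BL/6N background, carrying the transgene Tg(Foxp3-DTR/EGFP)23.2Spar, in which Foxp3 control sequences drive a diphtheria toxin receptor fused to a green fluorescent protein. Each library came from 500 to 1000 cells. No sham brain library was analysed here, so tissue and surgery differ together between tMCAO brain and sham blood.

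Red cells carry oxygen on haemoglobin, a tetramer of alpha-globin and beta-globin chains that each hold a haem. Mature mammalian red cells have no nucleus, but young red cells (reticulocytes) still hold globin mRNA, and blood taken for leukocyte sorting contains many red cells. The red cell membrane is held in shape by a spectrin network, which ankyrin and protein 4.2 tie to the anion exchanger band 3. During development the transcription factors Gata1, Tal1 and Klf1 switch these genes on.

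Totals ranged from 14348179 to 24460894 counts per library. Levels are given in CPM, counts scaled to the library size after TMM adjustment. The gene that defines the sort, Foxp3, was highest in sham blood 1 and 2, at 50.1 and 60.7 CPM. It stood at 5.18 CPM in tMCAO blood 2 and 19.6 CPM in tMCAO brain 2, but at only 0.538 CPM in tMCAO blood 1 and 0.726 CPM in tMCAO brain 1. The libraries tMCAO brain 1 and tMCAO blood 1 thus held little of it, and counts without both are given below. The summed level of 12 Treg and T cell markers was 7341 to 7438 CPM in sham blood, 573 to 3031 after tMCAO in blood and 318 to 1298 in brain, with no marker at 0. All 12 lay lower in both tMCAO blood and both brain libraries than in both sham libraries (30.4% and 29.7% of all genes). In the edgeR test described below, 0 of the 12 were called in any comparison. Summed platelet markers (10 genes) were 1251 to 1814 CPM in sham blood, 625 to 1925 after tMCAO in blood and 43.4 to 595 in brain. Gp1bb was at 0 in all 6 libraries and Gp1ba and Gp6 at 0 in tMCAO brain 2. Pf4 alone stood at 1839 and 449 CPM in tMCAO blood 1 and 2, and at 589 CPM in tMCAO brain 1. In sham blood it was at 443 and 541 CPM. Of 9 platelet markers tested, 8 lay lower in both tMCAO blood libraries than in both sham libraries, against 30.4% of all genes. By the edgeR test described below, 4 of the 9 were lower in tMCAO than in sham blood, against 3.15% of all genes. Whether the T cell or platelet RNA in a library bears on the red cell genes below was not tested. In bulk samples, fewer cells of a type and less RNA per cell cannot be told apart.

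The 31 genes together took 15.6% and 16.9% of all counts in sham blood 1 and 2. They took 0.222% and 3.95% in tMCAO blood 1 and 2, with 0.0764% and 0.0623% in tMCAO brain 1 and 2. The groups did not overlap, and the tMCAO blood libraries lay far apart from each other. Each of these shares has a 95% Wilson interval whose half-width is at most 1.59% of the share, which covers counting error only. The 4 globin genes alone took 14.5% and 15.6% in sham blood, 0.107% and 3.78% in tMCAO blood, with 7.05e-05% (14 counts) in tMCAO brain 1. In tMCAO brain 2 no globin read was counted in 24460894, which allows a share of up to 1.23e-05%. The other 27 genes took 1.06% and 1.35% in sham blood, 0.115% and 0.168% in tMCAO blood, with 0.0764% and 0.0623% in tMCAO brain. Globins therefore made up 93.2% and 92.0% of the counts of the list in sham blood, 48.1% and 95.7% in tMCAO blood, with 0.0922% and 0% in tMCAO brain.

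**Figure D1:**
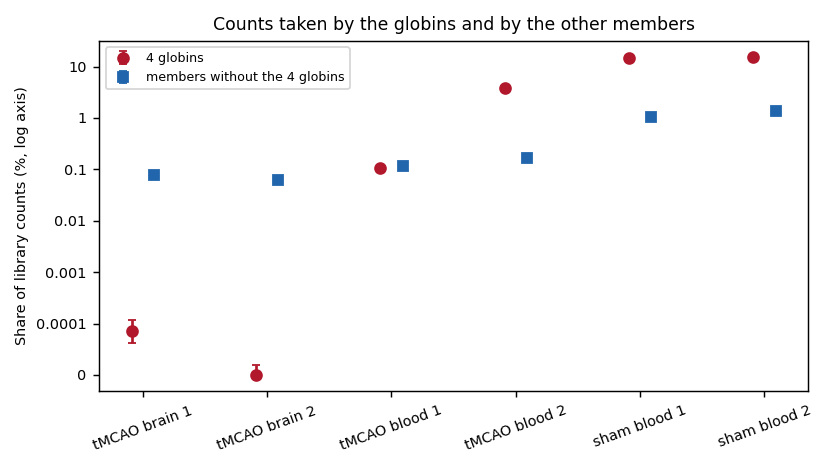
Share of all counts per library, in percent on a log axis, for the 4 globins and for the other 27 genes found, each point 1 library with its 95% Wilson interval. The globin share runs from 15.6% in sham blood 2 to 0 in tMCAO brain 2 (drawn at the bottom), while the other genes stay between 0.0623% and 1.35%.

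Counts of genes called were compared within a fit of all 16657 genes with edgeR's quasi-likelihood test, at a Benjamini-Hochberg adjusted p under 0.05. Between tMCAO brain and tMCAO blood, 4 of the 30 tested genes were lower in brain (Hbb-bs, Hba-a1, Hba-a2 and Nfe2) and 1 was higher (Ermap), where 1.37% of all genes were lower and 3.53% higher (4.9% in either direction). The median log2 difference, brain minus blood, was -1.66 over the 30 genes and 0.06 over all genes tested. Both brain libraries were below both tMCAO blood libraries for 14 of the 30 and above for 5, against 25.9% and 31.4% of all genes. None of these calls held in every fit with 1 library left out. That includes the sham libraries, which are not part of this contrast and enter it only through the shared spread. Such fits leave 1 library in a group and fewer degrees of freedom, and calls over all genes fell in each. They therefore cannot tell whether a call rested on 1 library. Without both low-Foxp3 libraries, 17 genes were called lower and 1 higher, but each tMCAO group was then 1 library, its spread was assumed equal to that of the sham pair, and calls over all genes went from 816 to 3609. That count is therefore a description and no support for the calls.

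Between tMCAO blood and sham blood, 10 of the 30 tested genes were lower after tMCAO, namely Epb42, Ank1, Rhd, Kel, Ermap, Slc25a37, Slc25a39, Mkrn1, Trim10 and Cat, and 0 were higher. Over all genes, 3.15% were called lower and 4.33% higher (7.48% in either direction). The median log2 difference, tMCAO minus sham, was -3.38 over the 30 genes and 0.11 over all genes tested. Both tMCAO blood libraries lay below both sham libraries for 26 of the 30, against 30.4% of all genes, and above them for 0, against 33.6%. No globin was among the 10. Epb42 and Kel had enough counts to be tested through the sham pair alone. Genes such as Rhag, Tspo2, Trim10, Slc4a1, Gata1 and Hemgn also needed that pair. For these genes the count filter itself favours lower levels outside sham blood, here and in the comparison of brain with sham blood. Their part in the counts of lower genes is therefore a description and no support. Leaving out tMCAO blood 1, sham blood 1 or sham blood 2 ended every call, in the list and over all genes. In those fits 1 group was a single library and fewer degrees of freedom were left. Without both low-Foxp3 libraries 20 genes were called lower, again with the spread of the sham pair alone and with calls over all genes going from 1246 to 3850.

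Between tMCAO brain and sham blood, 20 of the 30 were lower in brain and 0 were higher, against 2.62% and 8.01% of all genes (10.6% in either direction). All 4 globins, 6 of 10 membrane genes, 3 of 3 transport genes, all 3 tested maturation genes, 3 of 4 metabolic genes and 1 of 6 regulators (Nfe2) were among the 20. The median log2 difference, brain minus sham, was -4.31 over the 30 genes and 0.09 over all genes tested. Both brain libraries lay below both sham libraries for 24 of the 30, against 29.7% of all genes, and above for 2, against 34.9%. Leaving out sham blood 1 or sham blood 2 ended every call, in the list and over all genes, with sham blood then a single library. Leaving out tMCAO brain 1 kept 10 of the 20 calls and added Blvrb, and leaving out tMCAO brain 2 kept 12 of the 20. Without both low-Foxp3 libraries 24 were called lower, with the spread of the sham pair alone and with calls over all genes going from 1772 to 4979. The 3 comparisons share libraries, so their counts are not independent of each other. Nothing in the labels ties the libraries to separate mice, so the spread behind these p-values, between libraries alone, may be technical.

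**Figure D2:**
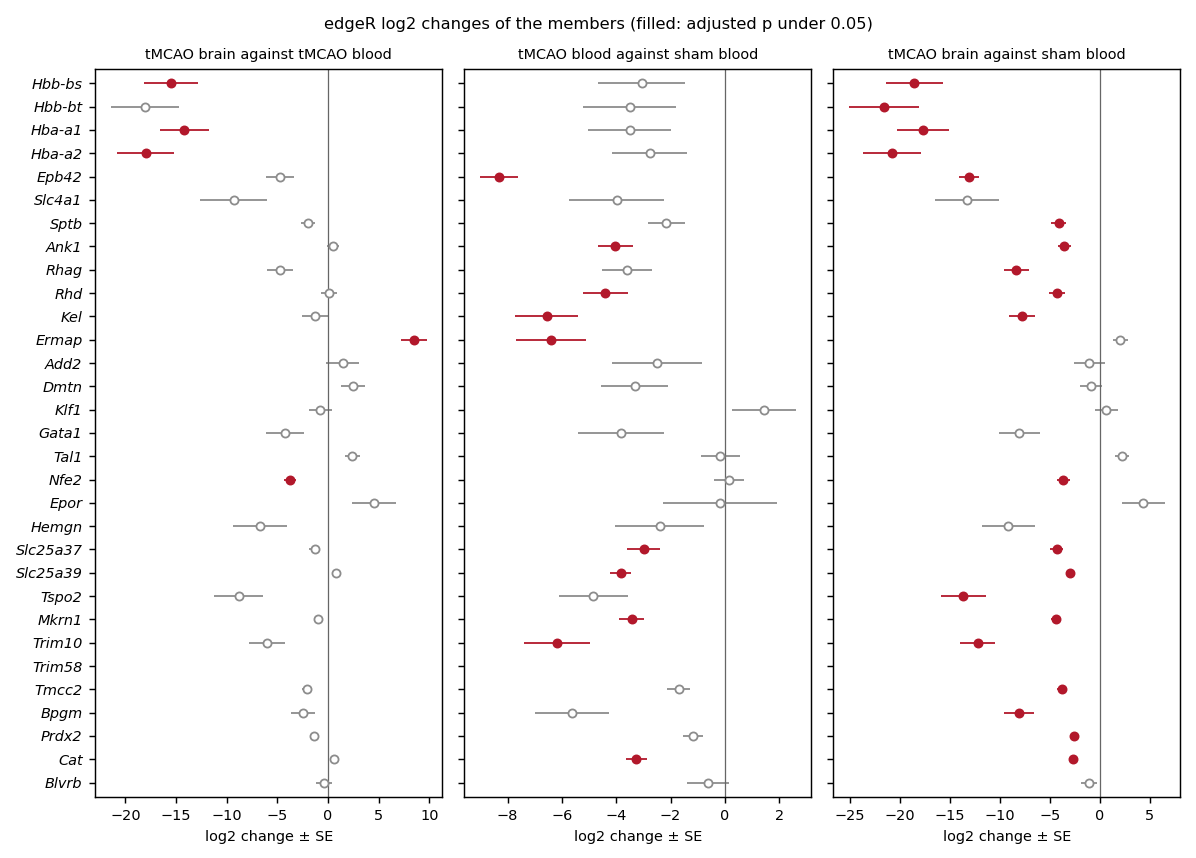
Fitted log2 differences of the tested genes in the 3 comparisons, a point per gene with its standard error, genes ordered by role, filled where the adjusted p was under 0.05 (Trim58, not tested, has no point). Where a group had no counts the fitted value depends on the prior count and is not a bound; the sham comparisons sit mostly left of 0, with medians of -3.38 and -4.31.

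In sham blood the adult globins were the most abundant genes of the list per kilobase. Hbb-bs encodes a beta chain and lies at chr7:103826534-103828096 on the minus strand of GRCm38, with its neighbour Hbb-bt, the other adult beta chain, at chr7:103812524-103813996 on the same strand. Hba-a1 and Hba-a2, which encode alpha chains, lie at chr11:32283511-32284465 and chr11:32296489-32297298 on the plus strand. Each pair is nearly identical in its coding sequence, with 1 difference in 441 bases for Hbb-bs and Hbb-bt (C417T, counted from the first base of the start codon, Hbb-bs first) and 1 in 426 for Hba-a1 and Hba-a2 (C381T). The coding stretches below, from the GENCODE M21 transcripts, run from base 381 to 441 in the beta pair and from base 351 to 411 in the alpha pair, with the base that differs in capitals.
Hbb-bs: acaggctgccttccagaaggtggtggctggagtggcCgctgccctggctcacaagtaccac
Hbb-bt: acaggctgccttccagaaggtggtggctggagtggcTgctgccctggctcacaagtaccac
Hba-a1: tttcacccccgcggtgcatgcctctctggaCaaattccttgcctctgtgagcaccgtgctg
Hba-a2: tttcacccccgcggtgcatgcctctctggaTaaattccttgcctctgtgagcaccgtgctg

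They are shown because they set how well the copies can be counted. Of all 75-base windows, the length of a read, 64.3% of those in the Hbb-bs transcript and 56.6% of those in Hbb-bt were identical in the other copy. For the alpha pair the shares were 62.2% of Hba-a1 and 81.0% of Hba-a2. These shares hold for single reads. The reads were paired, and a pair with 1 end in unshared sequence can still be placed. How reads with several positions were counted is not given in the sources used here, so the split within each pair is uncertain.

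Hbb-bs stood at 72633 and 76933 CPM in sham blood 1 and 2, 572 and 17355 CPM in tMCAO blood 1 and 2, with 0.423 and 0 CPM in tMCAO brain 1 and 2. All 3 groups were apart, but the tMCAO blood libraries differed from each other by 30.3-fold. The log2 difference of tMCAO blood minus sham was -3.06 ± 1.60 (SE, n = 2 libraries a group, edgeR adjusted p = 0.250). The brain libraries held 7 counts of Hbb-bs, all in tMCAO brain 1, so the pooled level in tMCAO blood was 54415-fold that in brain (95% counting interval 26410 to 135344). Most of those blood counts were in tMCAO blood 2, and without that library the ratio was 3354. The fitted log2 difference, brain minus tMCAO blood, was -15.49 ± 2.66 (edgeR adjusted p = 0.0350), and the call was lost in 7 of 14 alternative settings, over which the adjusted p ran from 3.51e-53 to 0.123.

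Hba-a1 stood at 37104 and 44673 CPM in sham blood, 338 and 6835 CPM in tMCAO blood, with 0.423 and 0 CPM in tMCAO brain. Its log2 difference was -3.51 ± 1.51 for tMCAO blood minus sham (edgeR adjusted p = 0.183) and -14.17 ± 2.39 for brain minus tMCAO blood (edgeR adjusted p = 0.0343). Hbb-bt stood at 19610.2 and 23600 CPM in sham blood, 60.9 and 3748 CPM in tMCAO blood, with 0 in both brain libraries. Against a floor of 3 counts over the brain group it was at least 27011-fold higher in tMCAO blood, with an edgeR adjusted p of 0.0503, just outside the threshold. Without tMCAO blood 2 that bound was 832-fold. Hba-a2 stood at 12300.1 and 12236.5 CPM in sham blood, 137 and 3462 CPM in tMCAO blood, with 0 in both brain libraries. It was at least 25477-fold higher in tMCAO blood than in brain (edgeR adjusted p = 0.0372), and at least 1868-fold without tMCAO blood 2. Every bound against a group at 0 falls when 1 of the libraries at 0 is left out, to 10887-fold for Hbb-bt and 10269-fold for Hba-a2 without tMCAO brain 2, since fewer counts then set the floor. Between the blood groups neither Hbb-bt (-3.50 ± 1.71, edgeR adjusted p = 0.236) nor Hba-a2 (-2.77 ± 1.39, edgeR adjusted p = 0.248) passed the test. Against sham blood all 4 globins were lower in brain, with edgeR adjusted p of 0.0164 for Hba-a1, 0.0180 for Hbb-bs, 0.0198 for Hba-a2 and 0.0269 for Hbb-bt. limma-voom called none of the 4 there (adjusted p up to 0.132), although it kept the other 16 of the 20 calls. Without both low-Foxp3 libraries the brain library that remains has 0 globin counts.

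**Figure D3:**
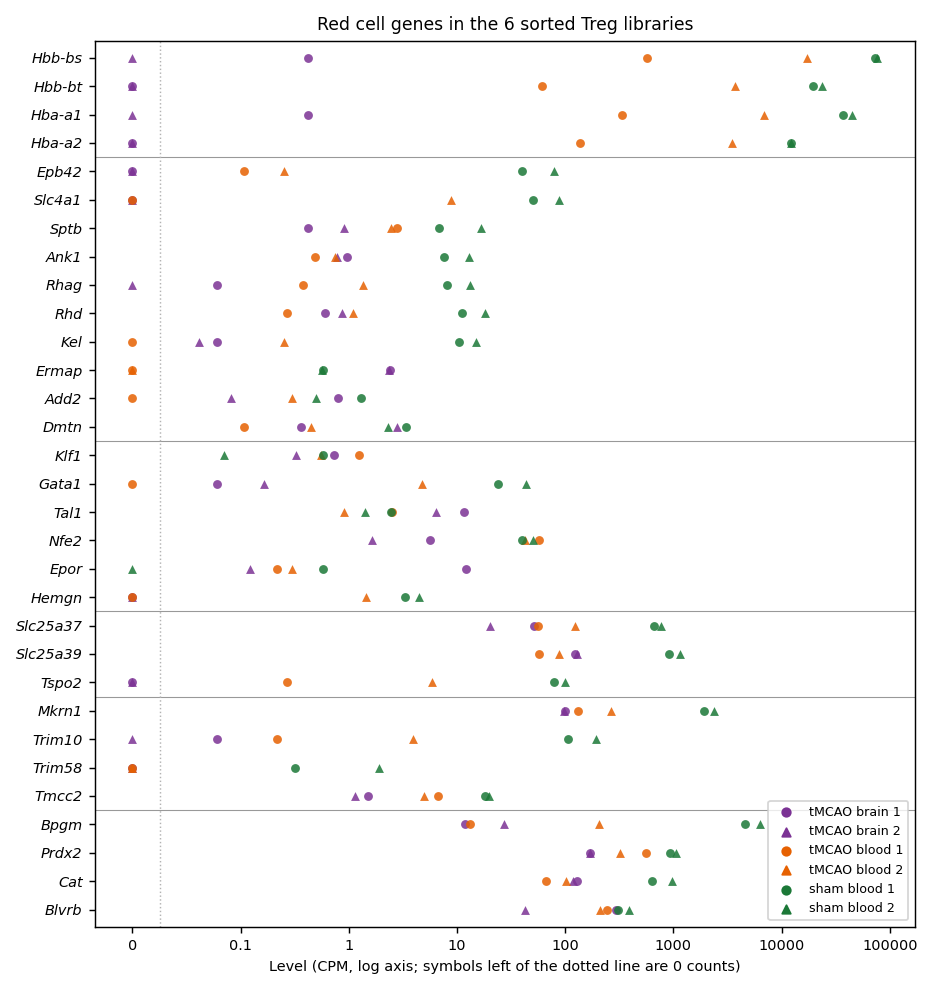
Level of the genes in each of the 6 libraries, in CPM on a log axis, coloured by group, with libraries at 0 placed at the left edge. The 4 globins reach 12236.5 to 76933 CPM in sham blood and lie at 0 or 0.423 CPM in tMCAO brain, whereas Prdx2, Cat, Mkrn1 and Slc25a39 stay above 50 CPM in all 6 libraries.

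Per kilobase of exonic sequence, Hbb-bs had the highest mean level in sham blood (97373 CPM per kb), followed by Hba-a1 (50355), Hbb-bt (30732) and Hba-a2 (18393). The ranges of these 4 over the sham libraries did not overlap, but the order within each pair rests on the uncertain split of reads between the copies. Next came Bpgm at 1512 CPM per kb and Mkrn1 at 480.4. Slc25a39, Prdx2 and Cat followed at 377, 328 and 310 CPM per kb, and their sham ranges overlapped, so their order is not set. Lowest were Klf1, Epor, Ermap and Add2, at 0.212 to 0.0876 CPM per kb.

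Upstream sequence is shown for Hbb-bs, Hbb-bt and Hba-a1, which carried most counts, and for Ermap, which was called higher in brain than in tMCAO blood. Each line below gives the 250 bases before the RefSeq transcription start on GRCm38.p6, read 5′ to 3′ on the gene's strand. Capitals mark GATAA (the core bound by GATA factors), CACCC (bound by Klf1), CCAAT and TATAA, on either strand. The reverse complement of GATAA appears as TTATC, that of the second motif as GGGTG, that of the third motif as ATTGG, and that of the last as TTATA. The windows lie at chr7:103827929-103828178 (minus) for Hbb-bs, chr7:103813924-103814173 (minus) for Hbb-bt, chr11:32283422-32283671 (plus) for Hba-a1 and chr4:119189996-119190245 (minus) for Ermap.
Hbb-bs: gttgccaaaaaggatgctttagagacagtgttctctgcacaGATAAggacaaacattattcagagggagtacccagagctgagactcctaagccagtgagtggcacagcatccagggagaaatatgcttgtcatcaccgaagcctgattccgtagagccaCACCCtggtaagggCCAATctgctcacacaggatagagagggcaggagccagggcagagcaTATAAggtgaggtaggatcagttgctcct
Hbb-bt: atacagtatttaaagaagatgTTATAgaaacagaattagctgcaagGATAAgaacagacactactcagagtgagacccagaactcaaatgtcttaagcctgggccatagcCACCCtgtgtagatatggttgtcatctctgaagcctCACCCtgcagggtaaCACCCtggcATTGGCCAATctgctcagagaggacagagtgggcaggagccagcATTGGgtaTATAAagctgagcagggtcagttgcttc
Hba-a1: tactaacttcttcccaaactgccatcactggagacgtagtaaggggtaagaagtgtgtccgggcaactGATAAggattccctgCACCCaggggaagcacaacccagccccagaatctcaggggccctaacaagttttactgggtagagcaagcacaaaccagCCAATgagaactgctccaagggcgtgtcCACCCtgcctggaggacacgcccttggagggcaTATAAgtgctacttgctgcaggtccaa
Ermap: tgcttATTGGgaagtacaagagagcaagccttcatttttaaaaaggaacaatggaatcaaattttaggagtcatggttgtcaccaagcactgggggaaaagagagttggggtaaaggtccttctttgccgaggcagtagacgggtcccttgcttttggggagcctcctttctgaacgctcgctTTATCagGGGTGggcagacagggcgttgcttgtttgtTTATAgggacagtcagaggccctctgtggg

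TATAA began 29 bases before the start in Hbb-bs, 28 in Hbb-bt and 27 in Hba-a1, and its reverse complement 30 bases before it in Ermap. CCAAT began 76 bases before the start in Hbb-bs and 88 in Hba-a1, while Hbb-bt held it at 75 and, on the other strand, at 80 and 36. CACCC began 90 bases before the start in Hbb-bs and 89 in Hbb-bt, the nearest of 3 there, and 60 in Hba-a1, the nearer of a pair. GATAA lay further out, at 209, 204 and 182 bases, but at 67 in Ermap. The Hba-a2 window shares an unbroken run of 297 bases with that of Hba-a1, whereas the longest run shared by Hbb-bs and Hbb-bt is 14 bases. Windows of 300 bases (250 before to 50 after the start) were listed for 26 genes of the list, 31 windows in all, and 6 of the 31 (19.4%) held all 4 motifs, those of the 4 globins, Ermap and Trim10. Of all 32851 windows, 1.51% held all 4. GATAA was found in 51.6% of the windows of the list and 25.4% of all windows, CACCC in 83.9% and 57.5%, CCAAT in 48.4% and 37.4%, and TATAA in 29.0% and 24.9%. A match describes the letters and is not evidence of binding.

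Among the 10 membrane and skeleton genes, 5 were lower in tMCAO than in sham blood. Epb42 encodes protein 4.2 and lies at chr2:121017891-121037072 on the minus strand. It stood at 40.3 and 79.4 CPM in sham blood 1 and 2, 0.108 and 0.249 CPM in tMCAO blood 1 and 2, with 0 in both brain libraries. The tMCAO blood libraries held 7 counts in all against 1756 in sham blood, and the log2 difference was -8.32 ± 0.69 (320-fold, edgeR adjusted p = 0.0313). In brain it was at least 806-fold lower than in sham blood (edgeR adjusted p = 0.00841).

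Slc4a1 encodes band 3 and lies at chr11:102348824-102366203 on the minus strand. It stood at 50.6 and 87.5 CPM in sham blood, 0 and 8.72 CPM in tMCAO blood 1 and 2, with 0 in both brain libraries. Its log2 difference between the blood groups was -3.98 ± 1.75 (edgeR adjusted p = 0.201). The bound against brain was at least 932-fold higher in sham blood, with an edgeR adjusted p of 0.0600. Neither comparison passed the test, although both sham libraries were above the other 4.

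Ank1, which encodes ankyrin 1, the anchor of spectrin, stood at 7.64 and 12.8 CPM in sham blood, 0.485 and 0.747 CPM in tMCAO blood, with 0.968 and 0.776 CPM in tMCAO brain. It was lower in tMCAO blood (-4.04 ± 0.65, edgeR adjusted p = 0.0324) and in brain (-3.54 ± 0.63, edgeR adjusted p = 0.0252) than in sham blood. Sptb, which encodes the beta-spectrin chain of red cells and overlaps Plekhg3 on the other strand, stood at 6.87 and 16.5 CPM in sham blood, 2.80 and 2.44 CPM in tMCAO blood, with 0.423 and 0.899 CPM in tMCAO brain. Only its difference between brain and sham blood passed the test among the 3 comparisons (-4.11 ± 0.74, edgeR adjusted p = 0.0256).

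The blood group genes Rhd, Kel and Rhag were all highest in sham blood. Rhd, of the Rh antigen family, stood at 11.1 and 18.2 CPM in sham blood, 0.269 and 1.10 CPM in tMCAO blood, with 0.605 and 0.858 CPM in tMCAO brain. Relative to sham blood it was 21.2-fold lower in tMCAO blood (edgeR adjusted p = 0.0381) and 19.8-fold lower in brain (edgeR adjusted p = 0.0285). Kel, the Kell antigen gene, stood at 10.5 and 14.8 CPM in sham blood, 0 and 0.249 CPM in tMCAO blood, with 0.0605 and 0.0408 CPM in tMCAO brain. The tMCAO blood libraries held 5 counts of Kel against 375 in sham blood (log2 difference -6.57 ± 1.17, edgeR adjusted p = 0.0363). The brain libraries held 2, a ratio of 258 with a counting interval of 71.0 to 2139 (edgeR adjusted p = 0.0203). Rhag, whose product carries Rh proteins to the membrane, stood at 8.09 and 13.1 CPM in sham blood, 0.377 and 1.35 CPM in tMCAO blood, with 0.0605 and 0 CPM in tMCAO brain. Against its single brain count the ratio was 429 with an interval of 76.5 to 17017 (edgeR adjusted p = 0.0179), and the difference between the blood groups did not pass the test (edgeR adjusted p = 0.0653).

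Ermap, an erythroid membrane protein of the immunoglobulin family at chr4:119175457-119190011 on the minus strand, was the gene of the list called higher in brain than in tMCAO blood. Its level was 2.42 and 2.37 CPM in tMCAO brain, 0 in both tMCAO blood libraries, and 0.578 and 0.563 CPM in sham blood. The brain pair thus held 98 counts and the sham pair 17, against 0 after tMCAO in blood. The level in brain was at least 30.8-fold that in tMCAO blood (edgeR adjusted p = 0.0343), and in sham blood at least 7.35-fold (edgeR adjusted p = 0.0497). The first call was lost in 8 of 14 alternative settings (adjusted p from 0.000172 to 0.124) and the second in 10 of 13 (adjusted p from 0.00809 to 0.292), each of the 6 settings without 1 library among them. The 4.16-fold higher level in brain than in sham blood did not pass the test (edgeR adjusted p = 0.156). Add2 and Dmtn, which bind the spectrin network, ranged from 0 to 1.28 CPM and from 0.108 to 3.40 CPM over the 6 libraries, and neither was called in any comparison.

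Of the 6 regulators, 0 were called between the blood groups. Gata1 (chrX:7959260-7978071, minus strand), the GATA factor of erythroid, megakaryocyte and mast cells, stood at 23.7 and 43.4 CPM in sham blood, 0 and 4.73 CPM in tMCAO blood 1 and 2, with 0.0605 and 0.163 CPM in tMCAO brain. Both sham libraries lay above the other 4, but the log2 difference was -3.82 ± 1.58 for tMCAO blood (edgeR adjusted p = 0.170) and -8.06 ± 2.04 for brain (edgeR adjusted p = 0.0567). Klf1 (chr8:84901928-84905291, plus strand), which drives adult beta-globin transcription, was low in every library, with 9 and 1 counts in sham blood, 23 and 11 in tMCAO blood, and 12 and 8 in brain. The groups overlapped, and a difference was not detectable at this depth (edgeR adjusted p = 0.446 to 0.752 over the 3 comparisons). The log2 difference of brain minus sham, 0.66, turned to -0.01 without tMCAO brain 1 and to -0.15 without sham blood 2. Tal1, a partner of Gata1 in transcription complexes, stood at 2.44 and 1.41 CPM in sham blood, 2.53 and 0.897 CPM in tMCAO blood, with 11.5 and 6.45 CPM in tMCAO brain. Both brain libraries lay above the other 4, but neither comparison with brain passed the test (edgeR adjusted p = 0.103 and 0.105).

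Nfe2, which encodes a subunit of a factor that activates globin genes and is also needed for platelet formation, lies at chr15:103248212-103258403 on the minus strand. It stood at 40.2 and 50.4 CPM in sham blood, 57.2 and 42.3 CPM in tMCAO blood, with 5.69 and 1.63 CPM in tMCAO brain. The blood groups overlapped (log2 difference 0.14 ± 0.55, edgeR adjusted p = 0.892). Brain was 13.7-fold below tMCAO blood (edgeR adjusted p = 0.0334) and 12.5-fold below sham blood (edgeR adjusted p = 0.0223). The summed platelet markers given above were likewise lowest in tMCAO brain. Of the 9 tested, 4 were called lower there than in tMCAO blood and 8 lower than in sham blood. The shares of all genes were 1.37% and 2.62%. Between the blood groups Nfe2 was not called, while 4 of the 9 were lower after tMCAO (3.15% of all genes). The part of platelet RNA in the Nfe2 differences was not tested. Epor, the erythropoietin receptor, held 200 counts in tMCAO brain 1 and 3 in tMCAO brain 2, so its 12.1 CPM rested on 1 library. Hemgn, a nuclear protein of blood progenitors, was at 3.34 and 4.43 CPM in sham blood, at 1.45 CPM in tMCAO blood 2 and at 0 in the other 3 libraries, and was not called.

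Of the 3 mitochondrial and transport genes, 2 were lower in tMCAO than in sham blood and 3 were lower in brain than in sham blood. Slc25a39, which carries glutathione into mitochondria, stood at 919 and 1158 CPM in sham blood, 56.7 and 88.4 CPM in tMCAO blood, with 124 and 129 CPM in tMCAO brain. It was 14.3-fold lower in tMCAO blood (-3.84 ± 0.38, edgeR adjusted p = 0.0313) and 8.22-fold lower in brain (-3.04 ± 0.37, edgeR adjusted p = 0.0120). Its brain level exceeded both tMCAO blood libraries, with an edgeR adjusted p of 0.192. Slc25a37, the mitochondrial iron importer mitoferrin-1, stood at 665 and 775 CPM in sham blood, 56.3 and 125 CPM in tMCAO blood, with 52.0 and 20.3 CPM in tMCAO brain. It was 7.96-fold lower in tMCAO blood (-2.99 ± 0.61, edgeR adjusted p = 0.0422), with an adjusted p of 0.0502 without tMCAO blood 2. In brain it was 19.9-fold lower than in sham blood (edgeR adjusted p = 0.0169). Tspo2, an erythroid translocator protein, stood at 78.4 and 99.1 CPM in sham blood, 0.269 and 5.88 CPM in tMCAO blood, with 0 in both brain libraries, at least 1207-fold lower than in sham blood (edgeR adjusted p = 0.0278). Its difference between the blood groups did not pass the test (edgeR adjusted p = 0.0784).

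Among the maturation genes, Mkrn1, a ubiquitin ligase gene at chr6:39397804-39420462 on the minus strand, stood at 1916 and 2349 CPM in sham blood, 132 and 264 CPM in tMCAO blood, with 101 and 96.6 CPM in tMCAO brain. It was 10.8-fold lower in tMCAO blood (-3.43 ± 0.46, edgeR adjusted p = 0.0313) and 21.6-fold lower in brain (-4.44 ± 0.48, edgeR adjusted p = 0.00994). Trim10, a ubiquitin ligase gene of terminal red cell development, stood at 107 and 193 CPM in sham blood, 0.215 and 3.89 CPM in tMCAO blood, with 0.0605 and 0 CPM in tMCAO brain. Its log2 difference in tMCAO blood was -6.18 ± 1.21 (edgeR adjusted p = 0.0402). The brain libraries held 1 count, a ratio of 6073 to sham blood with an interval of 1089 to 239934 (edgeR adjusted p = 0.0155). Tmcc2 stood at 18.3 and 19.6 CPM in sham blood, 6.68 and 4.93 CPM in tMCAO blood, with 1.51 and 1.14 CPM in tMCAO brain. All 3 groups were apart, and brain was 14.2-fold below sham blood (edgeR adjusted p = 0.0120). Trim58 had 32 counts in sham blood and 0 in the other 4 libraries.

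Bpgm makes 2,3-bisphosphoglycerate, which lowers the oxygen affinity of haemoglobin, and lies at chr6:34476207-34505613 on the plus strand. It stood at 4576 and 6277 CPM in sham blood, 13.1 and 206 CPM in tMCAO blood 1 and 2, with 11.98 and 26.9 CPM in tMCAO brain 1 and 2. It was 279-fold lower in brain than in sham blood (edgeR adjusted p = 0.0277). The blood groups did not overlap, with a log2 difference of -5.63 ± 1.35 (edgeR adjusted p = 0.0567), and the tMCAO blood libraries differed by 15.7-fold.

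Prdx2, Cat and Blvrb had counts in all 6 libraries. Prdx2, a peroxide-reducing enzyme gene that overlaps Rnaseh2a and Junb on the other strand, stood at 939.6 and 1062 CPM in sham blood, 558 and 322 CPM in tMCAO blood, with 169.6 and 170.2 CPM in tMCAO brain. It was 5.89-fold lower in brain than in sham blood (edgeR adjusted p = 0.0171), and the other comparisons had edgeR adjusted p of 0.0799 and 0.0953. Cat, which encodes catalase, stood at 639.9 and 978 CPM in sham blood, 66.6 and 102 CPM in tMCAO blood, with 129 and 119 CPM in tMCAO brain. It was 9.59-fold lower in tMCAO blood (-3.26 ± 0.40, edgeR adjusted p = 0.0313) and 6.53-fold lower in brain (edgeR adjusted p = 0.0154). Blvrb, a biliverdin and flavin reductase gene, stood at 308 and 387 CPM in sham blood, 242 and 208 CPM in tMCAO blood, with 293 and 42.8 CPM in tMCAO brain 1 and 2. It was called in no comparison (edgeR adjusted p = 0.431 to 0.757).

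Proportions between genes were then compared within each blood library. The ratio of alpha-globin to beta-globin counts was 0.536 and 0.566 in sham blood 1 and 2, and 0.750 and 0.488 in tMCAO blood 1 and 2. Hbb-bt made up 21.3% and 23.5% of beta-globin counts in sham blood, and 9.61% and 17.8% in tMCAO blood. Each gene was then divided by Hbb-bs in the same library and set against the mean of that ratio in sham blood, for the 25 genes with at least 20 counts in both sham libraries. In tMCAO blood 2, 17 of the 25 were within 3-fold of the sham ratio, 1 was above it (Nfe2) and 7 were below it (Epb42, Ank1, Rhd, Kel, Tspo2, Trim10 and Bpgm). In tMCAO blood 1, 5 were within 3-fold, 13 above and 7 below (Epb42, Slc4a1, Kel, Gata1, Hemgn, Trim10 and Bpgm). These counts have no test, since each is 1 library. The floor of 20 counts was set on sham blood alone, where Hbb-bs held 1131590 and 1093364 counts, against 10633 in tMCAO blood 1. At that depth a low gene can reach 0 without a change in its ratio. The 0 counts of Hemgn and Kel there, and the 2 counts of Dmtn, scored above, therefore say little. Divided by alpha-globin instead, the 24 genes then compared gave 18 within, 2 above and 4 below in tMCAO blood 2, and 3, 13 and 8 in tMCAO blood 1.

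Epb42 was the lowest of the 25 in tMCAO blood 2, at 0.237 and 0.0181 times its sham ratio in tMCAO blood 1 and 2. Bpgm stood at 0.317 and 0.164 times and Trim10 at 0.189 and 0.112 times. Slc4a1, whose product binds that of Epb42, was at 0 in tMCAO blood 1 and at 0.548 times its sham ratio in tMCAO blood 2. In contrast Mkrn1 was at 8.08 and 0.534 times, Slc25a39 at 7.15 and 0.368 times, and Cat at 10.8 and 0.546 times. Prdx2, Blvrb and Nfe2 were far above in tMCAO blood 1, at 72.9, 91.4 and 165 times, and nearer in tMCAO blood 2, at 1.39, 2.59 and 4.04 times. These genes also had counts where globins had 0. In tMCAO brain 2 Prdx2 stood at 170 CPM, Slc25a39 at 129, Cat at 119, Mkrn1 at 96.6, Blvrb at 42.8 and Nfe2 at 1.63. Where Hbb-bs is low, RNA from other cells can raise such a ratio with no change in red cells. Its part in tMCAO blood 1 was not tested.

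**Figure D4:**
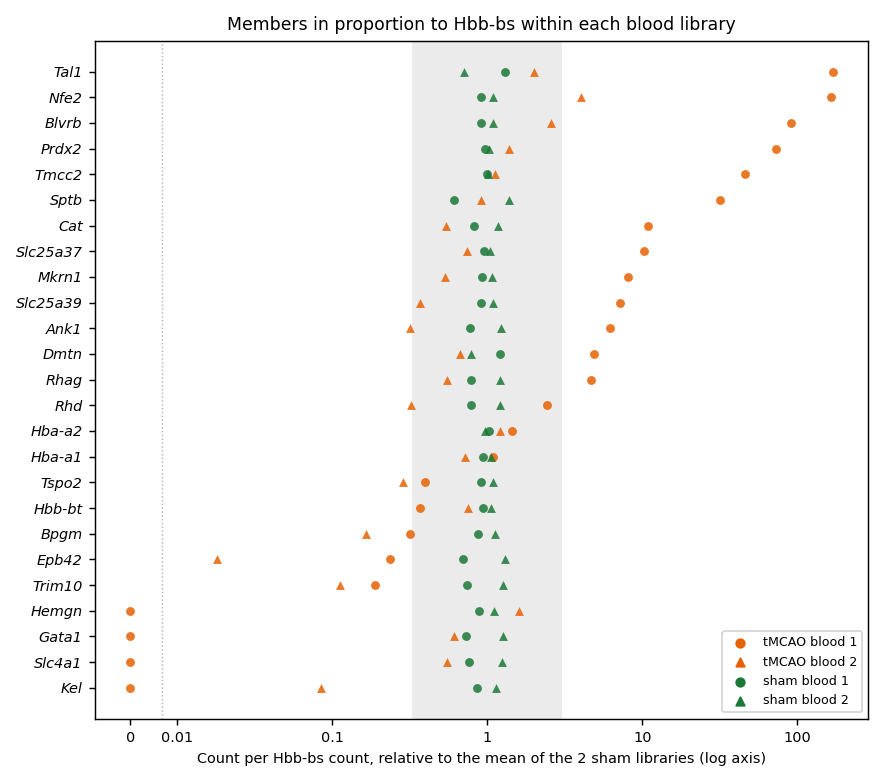
Ratio of each gene to Hbb-bs within each blood library, coloured by group, relative to the mean of that ratio in sham blood, on a log axis, with the 3-fold range shaded and ratios of 0 left of the dotted line. In tMCAO blood 2, 17 of 25 genes lie in the shaded range, and Epb42 lies lowest at 0.0181.

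Libraries of a group also differed among themselves. Where both libraries had counts, the level in tMCAO blood 2 over that in tMCAO blood 1 ran from 0.354 (Tal1) to 61.6 (Hbb-bt) over 24 genes, with a median of 2.11. The sham libraries were closer, at 0.122 (Klf1) to 5.92 (Trim58) over 30 genes and a median of 1.26. In tMCAO brain the ratio ran from 0.0101 (Epor) to 7.65 (Dmtn) over 20 genes. Within tMCAO blood the globins, Tspo2, Trim10 and Bpgm were 15.7-fold to 61.6-fold higher in library 2, while Epb42 was 2.31-fold higher, from 2 and 5 counts.

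Related genes outside the list were counted in the same fit, where the shares of all genes called lower and higher were 1.37% and 3.53% for brain against tMCAO blood, 3.15% and 4.33% between the blood groups, and 2.62% and 8.01% for brain against sham blood. Of 8 haem synthesis enzymes, 2 were lower after tMCAO than after sham surgery in blood, Fech by 31.9-fold and Urod by 3.602-fold, and 2 were lower in brain, Fech by 46.0-fold and Alas2. Alas2, the first and erythroid-specific enzyme of the pathway, stood at 4844 and 6976 CPM in sham blood, 2.58 and 103 CPM in tMCAO blood, with 0.121 and 0 CPM in tMCAO brain. Ppox was 3.72-fold higher in brain than in tMCAO blood, the single call of that list there. Of 18 further red cell membrane genes, 16 were tested. Among these 0 were called in the first or second comparison, and calls against sham blood included Epb41, which encodes protein 4.1 and was 15.7-fold lower in brain, and Slc2a1, a glucose transporter gene, which was higher in brain.

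Of 15 tested genes of reticulocyte maturation, 6 were lower after tMCAO than after sham surgery in blood, among them Bnip3l (8.22-fold), which marks mitochondria for removal, Ube2l6 (18.7-fold) and Isg20 (27.8-fold). Alox15, a lipoxygenase gene, was 412-fold higher there and was lower in brain than in tMCAO blood. Against sham blood, 8 of the 15 were lower in brain, including Bnip3l and Ube2o. Among 13 other erythroid regulators the calls went both ways: Lmo2 was higher and Zbtb7a lower in brain than in tMCAO blood, and Lyl1 and Zbtb7a were higher and Sox6 lower in tMCAO than in sham blood. Of 12 tested antioxidant and other red cell enzymes, Txn1 and Pgd were higher in tMCAO than in sham blood, and Adk was lower in brain than in sham blood.

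Markers of other cell types were summed in the same way. Summed microglia markers (10 genes) were at 202 to 269 CPM in sham blood, 119 to 128 after tMCAO in blood and 7482 to 8350 in brain. Of these, 9 of 10 were called higher in brain than in tMCAO blood and 10 of 10 higher than in sham blood, with Sall1 at 0 in all 4 blood libraries. Summed monocyte and macrophage markers (10 genes) were at 5557 to 6791, 7100.1 to 25271 and 14474 to 40562 CPM in the same order, and B cell markers (6 genes) at 840.0 to 964, 148 to 563 and 180.0 to 1450.2 CPM. Summed neutrophil markers (10 genes) held 29114 and 2402 counts in tMCAO brain 1 and 2 and 13 and 10 in sham blood, against 5184 and 129382 in tMCAO blood 1 and 2, and S100a9 was at 0 in both sham libraries. Basophil and mast cell markers, whose cells also use Gata1, summed to 83 to 1292 counts per library, with Prss34 at 0 in all 6 libraries and Mcpt8, Ms4a2 and Fcer1a at 0 in all but sham blood 1. In edgeR's test 0 B cell markers and 0 basophil and mast cell markers were called in any comparison. Of the 10 monocyte and macrophage markers, 0 were called between brain and tMCAO blood, while 4 were higher in tMCAO blood and 7 higher in brain than in sham blood. Of the neutrophil markers, 6 were tested, and 1 was called higher in each comparison with sham blood and 0 between brain and tMCAO blood. The part of these cells in the differences above was not tested.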

How the data were processed

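The authors deposited whole-number read counts per gene for the 6 libraries. Per the submitters' processing notes they used STAR, HTSeq 0.11.2 and GRCm38. Per the labels' protocols, cDNA from lysed cells was amplified with a SMART-Seq ultralow input kit and tagmented with Nextera XT, with paired-end reads of 75 bp. No molecular identifiers are mentioned, so counts are not independent molecules. The STAR version, annotation release, strand setting and treatment of reads with several positions are not given in the sources used here, so overlapping and near-identical genes are uncertain. Of the table's symbols, 97.2% were found in GENCODE M21, which gave positions and exonic lengths.

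Groups follow the sample titles. Genes were filtered with filterByExpr (minimum count 10), scaled by TMM and compared in edgeR 4.0.16 (R 4.3.3) by its quasi-likelihood test. All 6 libraries entered the fit, which had no covariates and 3 residual degrees of freedom. P-values were adjusted by Benjamini-Hochberg over 16657 genes within each comparison, and called under 0.05. Standard errors are the log2 difference over the square root of the F statistic. Folds against groups at 0 counts are bounds that set the group to a floor of 3 counts, and ratios to 1 to 7 counts carry exact 95% intervals. Alternatives used DESeq2 1.42.0, limma 3.58.1 (voom), other scalings, filters and samples. The script was tested on simulated data: with 16-fold changes it recovered 60.3%, 54.8% and 49.4% of changed genes in brain against tMCAO blood (15889 genes), tMCAO blood against sham (15962) and brain against sham (15965). With 4-fold changes it recovered 4.29%, 1.39% and 6.15%, and with 2-fold changes 0% in each. Of the 48, 38 and 49 genes called in the simulated comparisons, 1, 3 and 6 were genes with no change.

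Within each group the libraries differed beyond counting noise, with a chi-square over its degrees of freedom of 28.1 to 245, and each counted as 1 replicate. The genes, the related gene lists and the cell type markers were chosen with earlier results of these data known. Values in every library were to be given for the globins, for genes called in a comparison and for a stated set of others, and up to 4 called genes from each related list, some of which are not reported here. Promoter windows and their build are from RefSeq.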

Additional observations from a re-analysis of the deposited data

How the results depend on the processing

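With 2 libraries a group, 14 alternative settings were compared, 1 of them, leaving out both low-Foxp3 libraries, chosen after seeing the data. Between brain and tMCAO blood (4 genes of the list lower, 1 higher, 816 of all genes called), the counts were 16, 3 and 3598 with no filter on low counts, 11, 2 and 3451 with the DESeq2 Wald test, and 0, 0 and 26 in a fit of only these groups. limma-voom called 1 lower and 1446 of all genes, and 17 were lower and 3609 called without both low-Foxp3 libraries. In that last setting each tMCAO group is 1 library and the sham pair alone sets the spread; with 1 library left out, the lone library is assumed to vary like the other groups. Leaving out 1 library gave 0 to 8 lower, 0 to 0 higher and 31 to 313 in all. Between tMCAO blood and sham blood (10 lower, 1246 in all), 23 were lower and 3611 called with no filter, 18 and 3806 with DESeq2, 20 and 3850 without both low-Foxp3 libraries, and 0 to 14 lower and 0 to 1240 in all with 1 library left out. Between brain and sham blood (20 lower, 0 higher, 1772 in all), 2 were higher and 4458 called with no filter, 1 and 4007 with DESeq2, 2752 in a fit of only these groups, 4979 without both low-Foxp3 libraries, and 0 to 23 lower and 0 to 2080 in all with 1 library left out. Of the changes in single genes, 623 kept their direction and side of the threshold, 58 passed it newly, 134 no longer passed and 5 reversed. The reversed ones were Blvrb in brain minus tMCAO blood (0.39 without tMCAO brain 2, range -2.41 to 0.39 with 1 library left out), Gata1 in the same comparison (4.16 without tMCAO blood 2, range -5.24 to 4.16) and Klf1 in brain minus sham (-0.01 without tMCAO brain 1, -0.15 without sham blood 2, range -0.15 to 2.67, and -0.023 without both low-Foxp3 libraries). Fewer samples leave fewer degrees of freedom; for the other settings the cause was not tested.

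The groups share replicate numbers, but deviations of same-numbered libraries correlated at 0.304, -0.0285 and -0.0702 across 16657 genes (brain with tMCAO blood, brain with sham, tMCAO blood with sham). The labels do not say what a number marks, so whether brain and tMCAO blood libraries of 1 number share mice cannot be told from these data. With the replicate number as a block, 0 genes of the list were higher in brain than in tMCAO blood and 5, 11 and 22 were lower in the 3 comparisons. Calls over all 16657 genes were then 803, 1318 and 1977, against 816, 1246 and 1772 without the block. The block ended the call of Ermap in the first comparison (edgeR adjusted p = 0.0560).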
